A study of Mus musculus with 4 samples.

Results

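The sebaceous gland lineage genes examined here are 10 genes, found as the non-control probes of the array whose gene name is Pparg, Prdm1, Mc5r, Plin2, Dgat2, Elovl3, Far2, Awat1, Awat2 or Cidea. They had 1 probe each, 10 of 39429 probes on the array, and 5 of them entered the comparison across 17374 genes. The 15p cells were adult C3H/HeN mouse skin epithelial cells that had passed through 15 successive cultures with Wnt-3a, each of 10 days on collagen, with CD49f+ CD34+ cells sorted at every passage. The 0p cells were CD49f+ CD34+ cells sorted from the primary skin epithelial cells. The labels give Wnt-3a as treatment for both RNAs, and neither a transgene nor a number of animals. Each of 4 two-colour arrays took both RNAs, and there were 2 biological replicates with a dye swap each. The arrays are called R1-Cy5 and R1-Cy3 (replicate 1) and R2-Cy5 and R2-Cy3 (replicate 2), after the dye of the 15p RNA, and values by array are given in this order. P-values cover only variation between these 2 replicates (n = 2), and the test (limma) draws the spread of each gene towards that of all genes.

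Sebaceous glands are appendages of the hair follicle whose cells fill with lipid droplets and burst to release sebum, a mixture rich in triglycerides and wax esters. In mouse skin the glands are renewed from progenitors in the upper follicle, and cells of the bulge can feed them after injury. Pparg is the nuclear receptor that drives lipid storage in maturing sebocytes, Prdm1 (Blimp1) is a transcriptional repressor of the gland, and Mc5r is a melanocortin receptor that stimulates sebum secretion. Plin2 coats lipid droplets and Dgat2 makes triglycerides. Elovl3 lengthens fatty acids, Far2 reduces them to fatty alcohols, Awat1 and Awat2 join such alcohols to acyl groups to form wax esters, and Cidea is a lipid droplet protein.

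Each value rests on a probe of 60 bases, and the first 30 bases of 5 of them are shown to give the measured targets. They are the probes of the detected genes Pparg, Prdm1 and Plin2, and those of the wax ester enzymes Awat1 and Awat2, which were not detected.
Pparg, mm9 chr6:115440213-115440272, plus strand: gcaggaaagtcccacccgctgacaacgtgt
Prdm1, mm9 chr10:44157089-44157148, minus strand: gttggttgGTTTGTTTGTTTGTTTtttcct
Plin2, mm9 chr4:86302847-86302906, minus strand: ctggccagatgaccccttttgctgtattga
Awat1, mm9 chrX:97773128-97773187, plus strand: caaataccatgcactctacatggacgccct
Awat2, mm9 chrX:97597565-97597624, minus strand: cccttgcttacctcaaaggtttctgtcaaa
Capitals mark 3 or more copies in a row of a 4-base unit, which 1.16% of all probes hold. Among the member probes the Prdm1 probe alone held such a run, and 46.7% of its bases were T. No pair of member probes had more than 7 bases in a row in common over 45 pairs.

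The scanner software marks a spot as well above background from its signal and the local background. By this mark Pparg, Prdm1, Mc5r, Plin2 and Dgat2 were detected on all 4 arrays in either RNA, 5 of 10 genes. Over all probes the share was 53.7% in 15p cells and 54.4% in 0p cells. Elovl3, Awat1, Awat2 and Cidea were marked on no array in either RNA, against 28.2% of all probes. Far2 was marked on 0 arrays in 15p cells and on 1 in 0p cells. In bulk RNA, fewer cells of a type and less RNA per cell cannot be told apart.

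**Figure D1:**
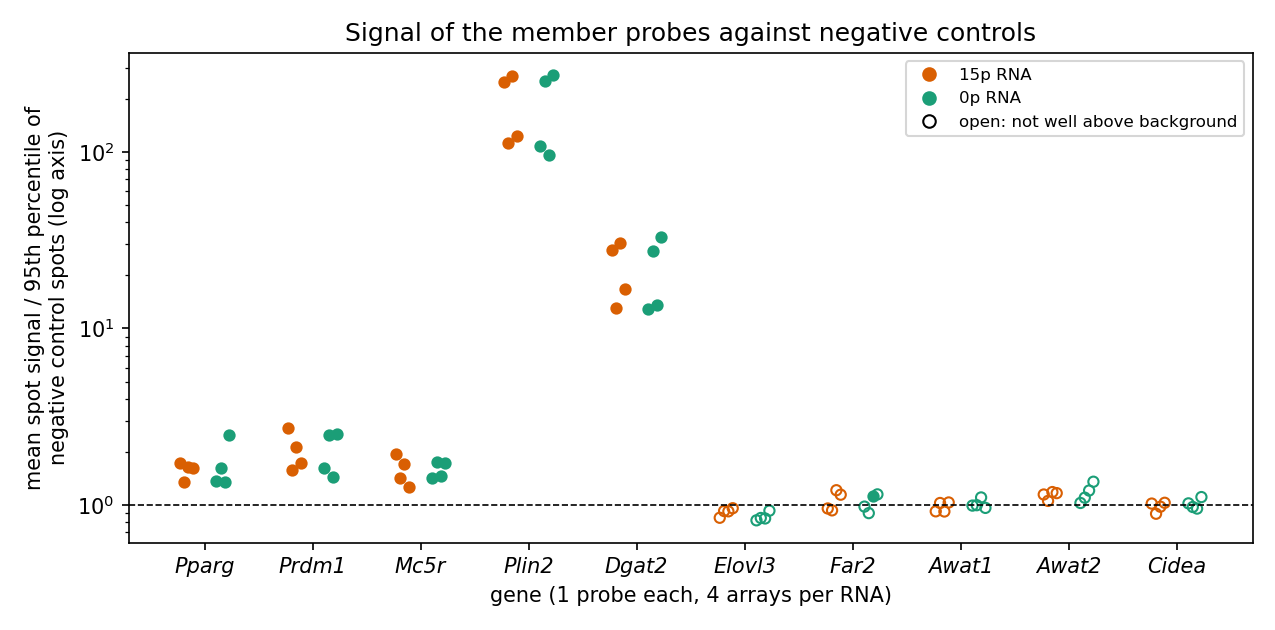
Mean spot signal of each member probe divided by the upper (95th) percentile of negative control spots in the same dye and array (log axis), in 15p and 0p RNA on 4 arrays; filled points were well above background and the dashed line marks the controls' 95th percentile. Plin2 reached 272 and Dgat2 33.1 times that percentile, while the 5 genes at the right lay between 0.818 and 1.35; levels of different probes are not comparable.

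Plin2 and Dgat2 were the members whose signals stood far above the negative control spots. Plin2 had 96.0 to 272 times their 95th percentile, and Dgat2 had 12.8 to 33.1 times. Pparg (1.34 to 2.48 times), Prdm1 (1.43 to 2.72) and Mc5r (1.27 to 1.95) were above that percentile on every array in both RNAs, but by less than 3 times. Ratios of these 3 genes therefore rest on dim spots, where the background correction adds an offset of 50 and draws ratios towards 0.

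No member passed the test between 15p and 0p cells. Mean log2 ratios of 15p over 0p, after averaging each dye-swapped pair, ran from -0.019 for Mc5r to 0.067 for Plin2, so that the point estimates lay within a fold of 0.987 to 1.05. None of the 5 tested members passed in either direction (limma, Benjamini-Hochberg adjustment over all genes, 0 of 5 higher and 0 of 5 lower). Over all tested genes, 0% were called higher and 0% lower. Without R1-Cy5 the members called stayed at 0 of 5, while 1535 genes (8.84%) were called higher and 1585 (9.12%) lower. Without R2-Cy5 the members again counted 0, and 42 genes were called higher and 46 lower. At an unadjusted p under 0.05 the members counted 0 of 5, against 6.3% of all genes. The 95% interval lay within a 1.5-fold difference for 5 of 5 members and for 99.7% of all genes. This interval applies to the measured ratio and leaves out differences within a dye swap. For Pparg, Prdm1 and Mc5r that ratio is drawn towards 0, so the interval does not bound the change of the transcript. With an offset of 0 their log2 ratios were 0.019, 0.067 and -0.035 (limma adjusted p 0.860 to 0.962).

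**Figure D2:**
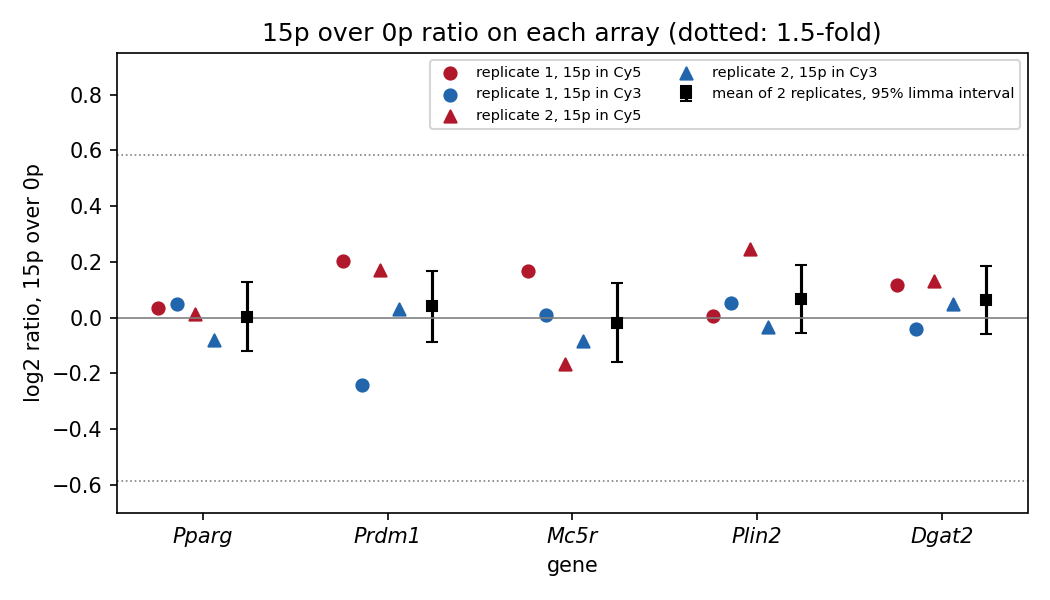
Log2 ratio of 15p over 0p for the 5 detected members on each array, by replicate and dye, with the mean of 2 replicates and its 95% limma interval; dotted lines mark a 1.5-fold difference. Every interval holds 0 and ends inside the dotted lines, and no member has the same sign on all 4 arrays.

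For Pparg the normalised log2 level in 15p cells was 6.71, 6.72, 6.77 and 7.01, against 6.68, 6.67, 6.76 and 7.09 in 0p cells. The RNAs overlapped, and both were highest on R2-Cy3. The log2 ratio of 15p over 0p was 0.0037 ± 0.053 (SD, n = 2; 95% interval -0.12 to 0.13; limma adjusted p = 0.991). Its sign differed between the replicates, at 0.041 in replicate 1 and -0.034 in replicate 2.

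The Pparg probe was printed as 10 spots on each array, which shows how far repeat spots of the same RNAs scatter. On R1-Cy5 the spots had a log2 ratio of 15p over 0p from -0.062 to 0.13 (SD 0.063 over 10 spots, 6 of them positive). On R1-Cy3 they ran from -0.18 to 0.20 (SD 0.13, 7 of 10 positive). On each array of replicate 2, 1 irregular spot was left out. The others ran from -0.20 to 0.22 on R2-Cy5 (SD 0.14, 4 of 9 positive) and from -0.17 to 0.016 on R2-Cy3 (SD 0.064, 1 of 9 positive). Spots thus fell on both sides of 0 on all 4 arrays. Spots of the same array are not replicates of the cells. The array means were 0.033, 0.049, 0.012 and -0.080.

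**Figure D3:**
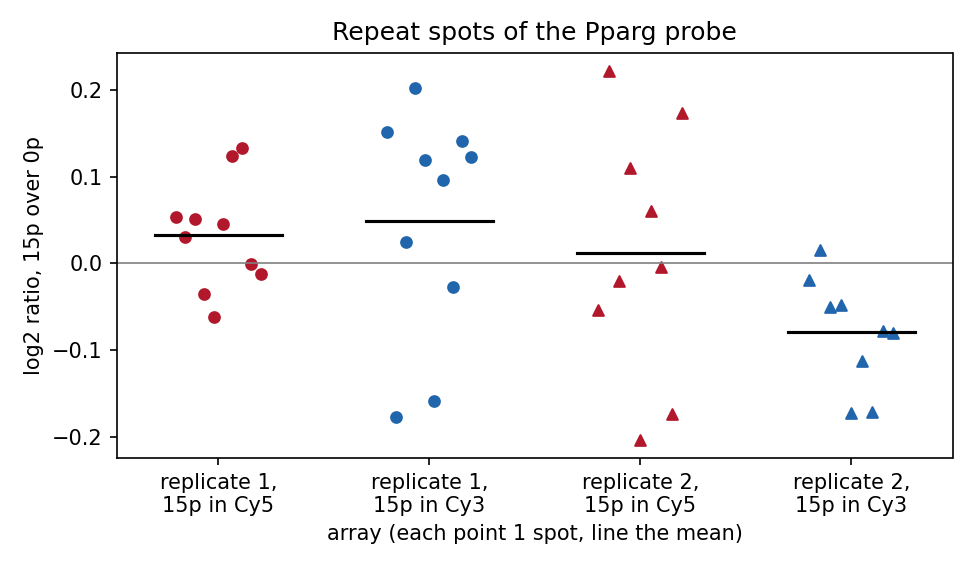
Log2 ratio of 15p over 0p for each usable spot of the Pparg probe on the 4 arrays, with the mean of each array as a line. The array means run from -0.080 to 0.049, inside the range of single spots (-0.20 to 0.22).

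Prdm1 had a normalised log2 level of 7.19, 6.91, 7.05 and 7.13 in 15p cells, against 6.99, 7.15, 6.88 and 7.10 in 0p cells. The groups overlapped, and in replicate 1 the RNA in Cy5 was the higher one on either array. Log2 ratios of 15p over 0p were 0.20, -0.24, 0.17 and 0.030. The mean was 0.040 ± 0.085 (SD, n = 2; 95% interval -0.087 to 0.17; limma adjusted p = 0.885). With the signals processed by the scanner software it was 0.14 (adjusted p = 0.834). Its ratio of Cy5 over Cy3, whatever the RNA, was 0.15 on the log2 scale, the largest of the 5 members, whose other values were 0.019 to 0.061.

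The Mc5r probe lies at mm9 chr18:68499130-68499189, plus strand. Its normalised log2 level was 6.93, 6.80, 6.76 and 6.60 in 15p cells, against 6.76, 6.79, 6.93 and 6.68 in 0p cells. The groups overlapped. Levels in 15p cells were above those in 0p cells for both hybridisations of replicate 1, with log2 ratios of 0.17 and 0.0078, and below them for both of replicate 2, with -0.17 and -0.084. The mean ratio was -0.019 ± 0.15 (SD, n = 2; 95% interval -0.16 to 0.12; limma adjusted p = 0.960). Replicate means of 0.087 and -0.13 made Mc5r the member with the widest spread, against a median SD of 0.056 over all genes.

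Plin2 had a normalised log2 level of 13.20, 13.35, 13.55 and 13.47 in 15p cells, against 13.19, 13.30, 13.31 and 13.51 in 0p cells. The groups overlapped, and 15p cells were highest on R2-Cy5. Log2 ratios of 15p over 0p were 0.0044, 0.052, 0.25 and -0.034. The mean was 0.067 ± 0.056 (SD, n = 2; 95% interval -0.056 to 0.19; limma adjusted p = 0.827). It leaned on R2-Cy5, without which it was 0.0065, whereas without R1-Cy5 it was 0.13. With median centring in place of loess it was 0.11 (limma adjusted p = 0.641).

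Dgat2 had a normalised log2 level of 10.15, 10.16, 10.52 and 10.56 in 15p cells, against 10.03, 10.20, 10.38 and 10.51 in 0p cells. The groups overlapped, and both arrays of replicate 2 were above those of replicate 1 in either RNA. Log2 ratios of 15p over 0p were 0.12, -0.043, 0.13 and 0.047. The mean was 0.063 ± 0.037 (SD, n = 2; 95% interval -0.059 to 0.18; limma adjusted p = 0.831). Plin2 and Dgat2 were the 2 of 5 members with positive means in both replicates, where 29.8% of all genes were higher in both replicates and 27.2% were lower in both.

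The other 5 members stayed near the negative control spots in both RNAs. Elovl3 (mm9 chr19:46209762-46209821) had mean spot signals of 51.5, 54.6, 50.5 and 65.8 in 15p cells, against 43.8, 52.4, 71.7 and 53.5 in 0p cells. All of these lay below the controls' 95th percentile (0 of 8 above it). Awat2 signals in 15p cells were 69.8, 62.3, 64.9 and 80.1, against 55.0, 68.3, 103 and 78.1 in 0p cells. All 8 were above that percentile, by 1.03 to 1.35 times, yet no spot was marked as well above background. Awat1 was above the percentile in 2 of 4 measurements in 15p cells and 1 of 4 in 0p cells, and Cidea (mm9 chr18:67527351-67527410) in 2 of 4 in each. Far2 (mm9 chr6:148130437-148130496) was above it in 2 of 4 in each, with 66.5 and 78.5 in 15p cells and 96.1 and 66.2 in 0p cells in replicate 2. Spot signals are not normalised between the dyes, so those of 15p and 0p cells on an array are not directly comparable. For these genes no ratio is given, and a transcript below the sensitivity of the array is not shown to be absent.

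The members' ratios stood in the middle of those of all genes. Their median log2 ratio of 15p over 0p was 0.040 over 5 genes, against 0.0025 over all tested genes, and 4 of 5 means were above 0 where 51.4% of all genes had a mean above 0. The median size of the ratio, without its sign, was 0.040 for the members and 0.046 for all genes. The size of Plin2, the largest of the 5, exceeded that of 67.9% of all genes, and the size of Pparg exceeded that of 4.3%. No member had the same sign on all 4 arrays, against 3.67% of all genes that were higher and 3.11% that were lower on all 4.

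**Figure D4:**
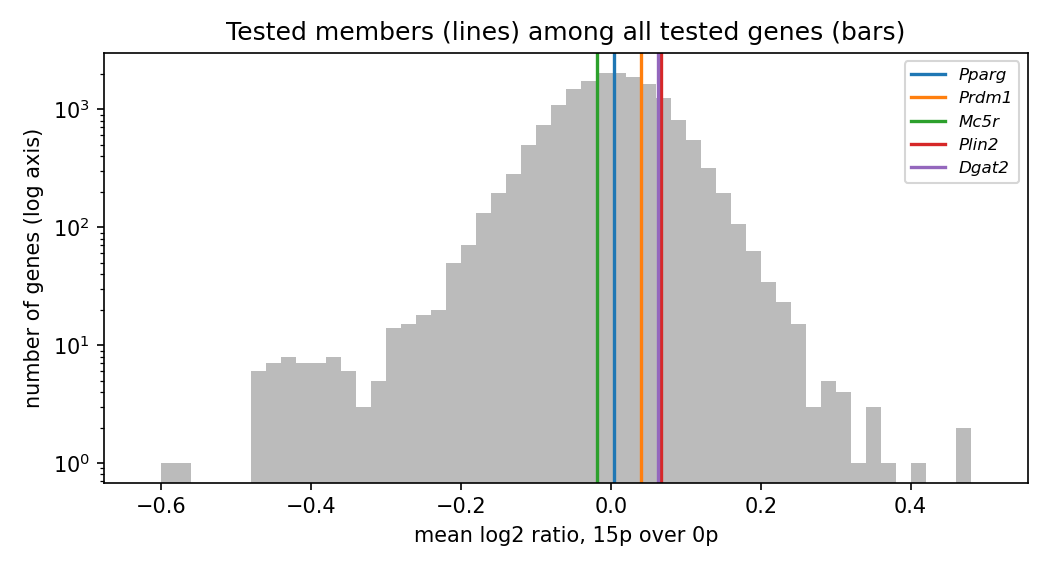
Number of genes (log axis) by mean log2 ratio of 15p over 0p for 17374 tested genes, with the 5 detected members as lines. The members lie between -0.019 and 0.067, in the central part of the distribution, whose SD was 0.076.

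Between R1-Cy5 and R1-Cy3 the ratios of 15p over 0p were negatively correlated (r = -0.55), as they were between R2-Cy5 and R2-Cy3 (r = -0.40), over 17374 genes (genes are not independent of each other). The sign followed the dye, one way on R1-Cy5 and R2-Cy5 and the other way on R1-Cy3 and R2-Cy3, for 0 of the 5 members and for 32.3% of all genes. R2-Cy5 had the widest ratios (SD 0.29 across genes, against 0.13 to 0.14 on the others). It gave the largest ratio in size for 3 of the members (Mc5r, Plin2 and Dgat2), and for 56.8% of all genes. Between 55.5% and 68.3% of spots were well above background, by array and RNA.

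Genes linked to the same gland and to lipid storage were followed in 4 related lists, and none of their 53 tested members passed (limma with Benjamini-Hochberg adjustment, 0 higher and 0 lower). Without R1-Cy5, 2 of the 53 were called higher and 3 lower, where 8.84% and 9.12% of all genes were. Of 22 other sebaceous gland genes 18 were tested, with a median log2 ratio of 15p over 0p of 0.0093, and 0 of 18 had an unadjusted p under 0.05. Those with the largest ratios in size were Far1, the relative of Far2 that also reduces fatty acids to alcohols (-0.079 ± 0.092), Elovl6, an elongase (-0.078 ± 0.016), and Fads1, a fatty acid desaturase (-0.068 ± 0.18; SD, n = 2). Elovl6 shows how small an SD can be when the arrays of a pair differ: it had -0.30, 0.16, -0.32 and 0.14 by array. Lgr6, a receptor of upper follicle progenitors, and Gata6, a transcription factor of the gland's duct, were marked above background on no array. They were the only 2 such genes of the 22, where 28.2% of all probes were marked on no array. Lrig1, Plet1 and Krt79 of the same list were marked on all 4 arrays in both RNAs.

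For lipid droplet and triglyceride genes the median log2 ratio of 15p over 0p was -0.022 over 16 tested of 22 genes. Unadjusted, 1 was higher and 0 were lower, against 2.92% and 3.38% of all genes. That gene was Fitm2, which helps lipid droplets to form at the endoplasmic reticulum, with 0.38, 0.015, 0.41 and -0.10 by array (0.17 ± 0.031, SD, n = 2; limma adjusted p = 0.749). Its values were high on R1-Cy5 and R2-Cy5 and near or below 0 on R1-Cy3 and R2-Cy3. Plin3, a droplet coat protein of the same family as Plin2, had 0.13 ± 0.12, and Acsl4, which activates fatty acids with coenzyme A, had -0.12 ± 0.044; neither passed. The family relatives Plin1, Plin5 and Cidec, together with Fitm1, were marked above background on no array.

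Among 20 PPAR partners and targets, 13 were tested and their median log2 ratio of 15p over 0p was 0.0078. The largest in size were Med1, a Mediator subunit that binds nuclear receptors (-0.11 ± 0.11), Cebpb, a transcription factor of early fat cell differentiation (0.095 ± 0.11), and Ncor1, a corepressor (-0.090 ± 0.15; SD, n = 2). Unadjusted, 0 of 13 had a p under 0.05. Fabp4, a fatty acid carrier, was marked above background on 1 array in 15p cells and 1 in 0p cells, Cd36, a fatty acid transporter, on 1 and 0, and Cebpa on none in either RNA.

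Of 17 family relatives of the members 6 were tested, with a median log2 ratio of -0.026 and 0 with an unadjusted p under 0.05. They included Mc3r, another melanocortin receptor (0.080 ± 0.079), Mogat2, an acyltransferase related to Dgat2 (0.060 ± 0.017), and Elovl7, an elongase (-0.059 ± 0.14; SD, n = 2). Mc2r, Mc4r, the accessory protein gene Mrap2, and Pomc, which encodes the precursor of the melanocortin peptides, were marked above background on no array.

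**Figure D5:**
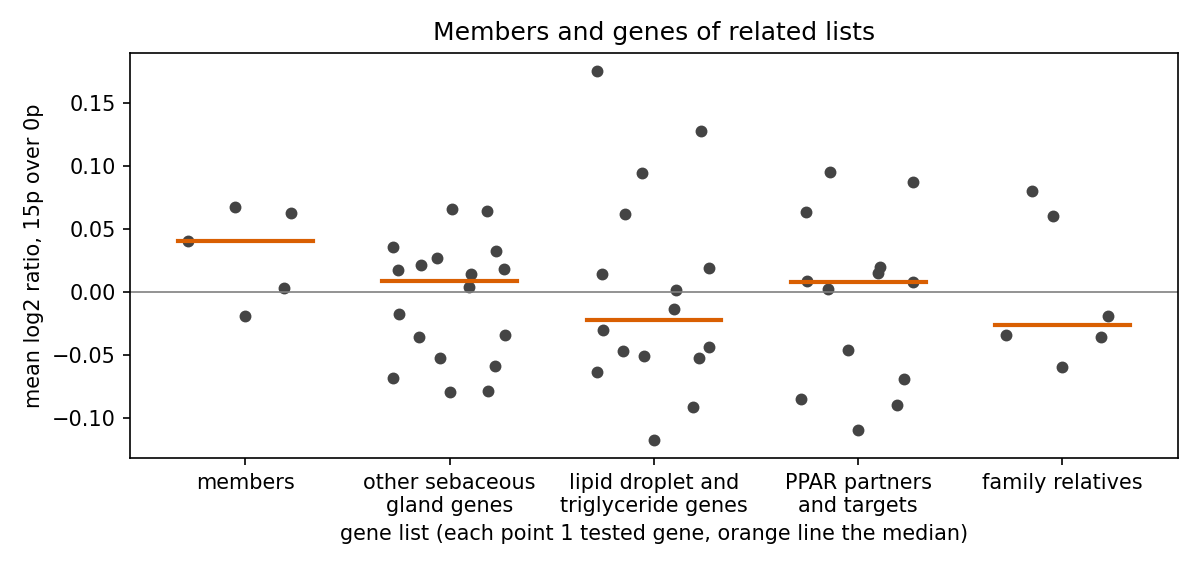
Mean log2 ratio of 15p over 0p for each tested gene of the member set and of 4 related lists, with the median of each as a line. Medians run from -0.026 for family relatives to 0.040 for the members, and single genes from -0.12 to 0.17.

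Several members are also expressed in fat cells, macrophages or B cells, so markers of these cells were examined. The labelled cell type was checked first: of 7 bulge and basal keratinocyte markers 6 were detected and tested, whereas Cd34, one of the sorted surface proteins, was marked on 0 arrays in 15p cells and on 1 in 0p cells. None of the 6 passed. Unadjusted, 2 were higher and 1 was lower, against 2.92% and 3.38% of all genes: the keratin genes Krt14 (log2 ratio of 15p over 0p 0.19 ± 0.12) and Krt15 (0.17 ± 0.033), and Sox9, a transcription factor of the bulge (-0.38 ± 0.60; SD, n = 2), each with a limma adjusted p of 0.749. Sox9 had log2 ratios of 0.14, -0.059, -1.56 and -0.053 by array, lowest on R2-Cy5. Krt14 had 0.085, 0.12, 0.73 and -0.18, highest on R2-Cy5. Krt15 had 0.31, -0.012, 0.48 and -0.093, so that its sign followed the dye. The summed normalised intensity of the 7 markers was 284400 to 391200 in 15p cells and 261500 to 354500 in 0p cells. Of 6 adipocyte markers 1 was tested (Lipe, -0.044 ± 0.088, adjusted p = 0.876, limma), and Lep and Plin1 were marked on no array. Adipoq was marked on 2 arrays in each RNA, Cfd on 1 in 15p and 2 in 0p cells, and Retn on 1 in each. The sum of the 6 was 478 to 568 in 15p cells and 486 to 545 in 0p cells. All sums include the offset of 50 for every probe, which draws those of dim probes, such as these 6, towards equality. Of 4 macrophage markers 2 were tested (Csf1r, 0.043 ± 0.095; Cd68, 0.025 ± 0.066), with a sum over the 4 of 966 to 1157 in 15p cells and 946 to 1100 in 0p cells. Ptprc was marked on 3 arrays in each RNA, and Adgre1 on 1 in 15p and 2 in 0p cells. Of the B and plasma cell markers Sdc1, which keratinocytes also express, was tested (0.059 ± 0.063), Ms4a1 was marked on no array, and Cd79a on 1 in 15p and 2 in 0p cells. The part of these cells in the member levels was not tested.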

How the data were processed

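In the deposited scanner files, spot and local background intensity are given for Cy5 and Cy3, as extracted with Agilent Feature Extraction 10.7.3.1 per the file headers and the submitters' processing notes. Their processed intensity was background-subtracted and dye-normalised by that software, and their log10 ratio is that of Cy5 over Cy3, per the file headers. The deposited value table holds the same log10 ratios (largest difference 0.0045, column medians 0), not turned for the dye swap. Other deposited columns, per the file headers, are flags of 0 or 1 for each spot.

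Mean intensities were corrected with normexp (offset 50) and normalised by loess within each array in limma 3.58.1 (R 4.3.3). Control spots and irregular spots (154 to 286 of 43020 an array) were left out, and spots of a probe were averaged. No spot was saturated. Probes stayed in if over 0.5 of their spots were well above background on all 4 arrays in 15p or in 0p cells (21658 of 39429 probes), and the brightest probe stood for its gene. Symbols came from RefSeq (GRCm38.p6) through the transcript accession for 26055 probes, and otherwise from the files. Ratios on the log2 scale were turned to 15p over 0p by the dyes in the labels, averaged within each dye-swapped pair, and tested against 0 with lmFit and eBayes (prior degrees of freedom 8.89, residual 1), two-sided, Benjamini-Hochberg adjusted at 0.05. A level is the log2 of the loess-normalised intensity, offset included. Values are means ± SD over 2 replicates, so that differences within a dye swap are not in the SD. The fit was tested on simulated data.

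The members and lists were chosen with earlier results of these data known. All members were described, and in each related list the 3 tested genes with the largest ratios in size were named. Genes named as undetected, Lrig1, Plet1 and Krt79 as detected, and Elovl6 array by array, were chosen after their values were seen. Alternatives covered background correction, normalisation, filters, probe choice, pairing and arrays left out. Slide and replicate cannot be told apart, since each replicate had a slide of its own. As a check of pairing, the deviations of same-numbered arrays from the means per orientation were correlated across genes. Arrays of the same replicate should deviate alike, but the correlation was negative (-0.26). The pairing was taken from the labels, and this check does not bear it out. A B cell marker and a probe sequence are not reported here.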

Additional observations from a re-analysis of the deposited data

Results flagged for a closer look

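Far2 was outside the comparison of the report but had 1 marked value, close to the negative controls. Its mean spot signal was marked as well above background on 1 array, R2-Cy5 (replicate 2, 15p labelled with Cy5), in the 0p channel (96.1 in Cy3). The negative controls had a 95th percentile of 85.5 in that dye on this array, against 53.6 to 68.6 on the others. In 15p cells on the same array the Far2 signal was 66.5 in Cy5, against 54.8 at the controls' percentile, and was not marked.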

How the results depend on the processing

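The count of members called was 0 in all 16 alternative fits with a test, and no alternative moved a member across the threshold. The fit with the replicate block, which also has a dye term, gave the same values as the average of each pair, 0 members called and a median member log2 ratio of 0.040, since both weigh the same difference, and Aquantile leaves ratios as they are. The crossed pairing, chosen after the data were seen, called 0 members and 0 related genes, against 7 genes higher and 53 lower over all genes. With median centring in place of loess the ratio of Pparg was -0.010, that of Mc5r 0.0057 and that of Plin2 0.11. With scanner processed signals, or with the deposited value table, that of Prdm1 was 0.14. Without each array or replicate in turn, the log2 ratio of 15p over 0p ran from -0.034 to 0.041 for Pparg, from -0.13 to 0.087 for Mc5r, from -0.027 to 0.11 for Prdm1, from 0.0065 to 0.13 for Plin2 and from 0.037 to 0.089 for Dgat2, and the median of the members from 0.033 to 0.089. The related genes called ran from 0 to 5 of 53. All 5 came without R1-Cy5, where 1535 genes (8.84%) were called higher and 1585 (9.12%) lower: Plin3 (0.21), Fitm2 (0.18), Acsl4 (-0.19), Med1 (-0.20) and Acsl3 (-0.18). That fit, the fit without R2-Cy5 and the crossed pairing have infinite prior degrees of freedom, so they use the same spread for all genes. Without R1-Cy5 the lone R2-Cy5 has no repeat, and without R2-Cy5 the lone R1-Cy5 has none. Signals close to the negative controls limit what can be said of Pparg, Prdm1, Mc5r and the 5 undetected members.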
